A study of Caenorhabditis elegans with 12 samples.

Results

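A set of 1596 adenosines of the Caenorhabditis elegans genome that read as guanosine in RNA, each with a deposited score of 10 or more, is described here. The sites were chosen by that score, on chromosomes II, III, IV, V and X. They made up 2.63% of the 60630 sites listed on these chromosomes, out of 82895 listed for C. elegans in the whole series. The score is the readout that selected them, so its size among them is a description and nothing was tested on it. For brevity they are called high-scoring sites, and listed sites with a score under 10 are called lower-scored.

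The series holds 12 RNA-seq libraries of wild-type Bristol N2 worms. Total RNA was depleted of ribosomal RNA. For each of 6 stages there was 1 library treated with RNase R, an exonuclease that digests linear RNA and leaves circles, and 1 mock library left at room temperature. Per the labels, stage 1 was embryo, stages 2 to 5 were L1-L4 larvae and stage 6 was young adult. The table names no library, so no site could be tied to RNase R or mock treatment or to a stage. The RNA behind it may come from any of these libraries, no mean or SD over samples exists, and no test over samples could be run. The depth behind a site and its edited fraction are unknown, and the sources used here do not say what the score counts.

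ADAR enzymes bind double-stranded RNA and deaminate adenosine to inosine, which sequencing reads as guanosine. In C. elegans, adr-2 encodes the active deaminase, and adr-1 encodes a related RNA-binding protein that lacks deaminase activity and modulates editing. Double-stranded substrates in animal transcripts are often made by inverted repeats, stretches that are followed by their own reverse complement and can fold back into a hairpin. ADARs are also known for their preferences at the bases beside the edited adenosine: G before it is disfavoured, and G after it is favoured.

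Each listed site comes with the 3 genome bases centred on it, so that closely spaced sites spell out short stretches of sequence. The following stretches, on the strand of the sites and from 5′ to 3′, are the longest ones with a high-scoring site in 5 of the 10 regions that held the most such sites. The longest stretches of the remaining regions were shorter, with 10 to 13 bases and 1 to 5 high-scoring sites, and are not printed. The printed ones show where high-scoring sites sat in these stretches and which other bases stood between them. Long stretches can be spelled only where listed sites are dense, so they need not be typical of their regions. Capitals mark the high-scoring adenosines. A lower-case a is a listed site with a score under 10 or, in a few places, an adenosine that is not listed.
chrIV:4474829-4474857, minus strand: tAAaggatgataAtcaAAtAAAAattAAg
chrIII:12224331-12224348, minus strand: tAAaatgactAAAAtgAa
chrIII:5459488-5459504, plus strand: gAgatAgcAAaacatAg
chrV:3749740-3749775, minus strand: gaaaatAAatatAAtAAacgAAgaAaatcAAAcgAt
chrV:20251233-20251248, minus strand: cattattAgaaaatAt
In the stretch on chromosome IV, 11 of 16 listed sites were high-scoring, with scores from 1 to 67 over all 16. In that of 36 bases on chromosome V, 13 of 22 listed sites were high-scoring and scores ran from 1 to 42. High and low scores thus stood side by side within a few bases.

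The highest single score was 143, at position 2646530 of chromosome V on the plus strand, in the triplet AAT. The stretch of 61 bases around it is shown with n for bases that no listed triplet covers.
chrV:2646500-2646560, plus strand: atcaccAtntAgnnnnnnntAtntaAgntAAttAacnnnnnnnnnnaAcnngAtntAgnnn
Of the 14 listed sites in this window, 10 were high-scoring. The adjacent adenosine on the 5′ side scored 133 and the next listed site on the 3′ side, 3 bp away, scored 81, so that this summit was shared by neighbours. The 4 next highest regional maxima differed in this respect. A TAA site at 12224044 of chromosome III (minus strand) scored 114, with neighbours of 84 and 71. An AAG site at 5459547 of chromosome III (plus strand) scored 102, with neighbours of 60 and 27. By contrast, a TAG site at 1011647 of chromosome X (plus strand) scored 111, between neighbours of 16 and 2. A TAG site at 20251610 of chromosome V (minus strand) scored 86 beside a 5′ neighbour of 4, only 2 bp away, and a 3′ neighbour of 40.

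Scores of the high-scoring sites had a median of 14 and an upper quartile of 21. A score of 10 to 14 was held by 812 sites (50.9%), 15 to 29 by 568, and 30 or more by 216 (13.5%), of which 8 reached 100. The limit cut through a continuous range, with 257 sites just inside it at a score of 10 and 316 just outside it at 9. Chromosome III had the most high-scoring sites, 538 of its 16803 (3.20%), followed by IV with 352 of 15621, II with 330 of 12913 and V with 313 of 12065. On chromosome X there were 63 of 3228 (1.95%), and 42 of these 63 lay in 1 region.

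High-scoring sites were held by few regions. When all listed sites at most 1000 bp apart were merged, on either strand, the 5 chromosomes had 2073 regions, and 125 of these (6.03%, exact 95% interval 5.04 to 7.14%) held at least 1 high-scoring site. The 6 regions with the most held at least 25% of the high-scoring sites, 16 regions held at least 50% and 38 held at least 75%. A single high-scoring site was found in 21 regions, 2 to 9 in 56, and at least 10 in 48, which together had 1308 sites (82.0%). The 10 richest regions held 605 high-scoring sites, or 37.9%, but 3.69% of all listed sites. Of these 10 regions, 3 were also among the 10 with the most listed sites.

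Regions with high-scoring sites were large. They had a median of 101 listed sites over 857 bp, against a median of 13 sites over 90 bp in regions without. A high-scoring site was present in 3 of 1410 regions with up to 24 listed sites and in 14 of 333 with 25 to 49. The share was 20.4% among the 216 regions with 50 to 99 sites and 56.1% (64 of 114, exact 95% interval 46.5 to 65.4%) among those with at least 100. The region with the most listed sites, 884 at 13778793 to 13781346 on chromosome III, had 26 high-scoring sites and none above 12. A region without any had as many as 430 listed sites.

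The regions with high-scoring sites lay mostly on the chromosome arms, taken as the outer 33.3% at each end of the highest listed coordinate. Of the 125, 112 were on arms, which is 89.6% (exact 95% interval 82.9 to 94.4%), against 82.0% (80.2 to 83.7%) of the 1948 regions without; the intervals overlap. Among regions with at least 50 listed sites the shares were closer, 92.6% of 108 with and 87.8% of 222 without. Regions with at least 10 high-scoring sites were on arms in 45 of 48 cases. Left and right arms are given beside those of regions without high-scoring sites, which were themselves unevenly spread. On chromosome IV, 24 of 29 regions with high-scoring sites lay on the left arm (82.8%) and 3 on the right, against 238 of 464 regions without on the left (51.3%) and 139 on the right. On chromosome III, 29 of 43 lay on the right arm (67.4%) and 9 on the left, against 220 of 457 on the right (48.1%) and 170 on the left. Chromosome II had 16 of 29 on the right arm (55.2%), against 191 of 392 (48.7%). Chromosome V had 10 of 19 on the left arm (52.6%), against 192 of 445 (43.1%), and X had 2 of its 5 on each arm. Of the 13 regions in chromosome centres, 2 held 52 and 51 high-scoring sites and the remaining 11 held 1 to 18.

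**Figure D1:**
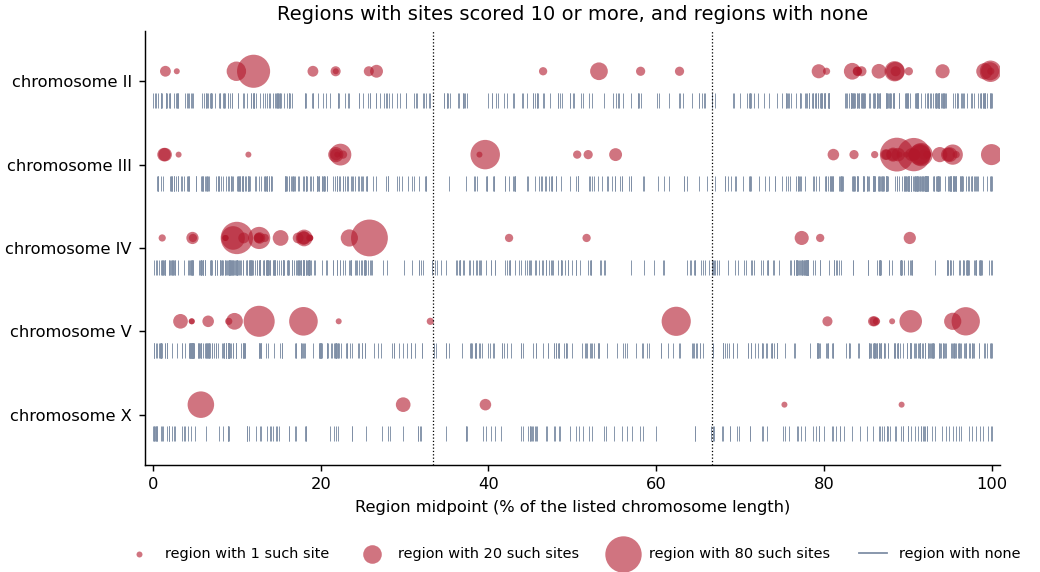
Position of regions along 5 chromosomes, as a percentage of the highest listed coordinate. Red discs are the 125 regions with high-scoring sites, their area growing with the number of such sites; grey ticks are the 1948 regions without, and dotted lines separate arms from centres. Most red discs lie on the arms, as do most grey ticks: the left arm of IV has 24 of 29 regions with high-scoring sites and 238 of 464 without.

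The 10 regions with the most high-scoring sites differed in how much of their length was high-scoring. The region 4474474 to 4475397 on chromosome IV had 82 high-scoring sites of 248 listed, all 82 on the minus strand in 1 run. In the region 12223929 to 12224510 on chromosome III, 69 of 163 sites were high-scoring, with a median of 31 among the 69. The most saturated was 2646466 to 2646867 on chromosome V, where 58 of 104 sites (55.8%) were high-scoring. It also held the longest unbroken series in the data, 15 consecutive listed sites of 10 or more between 2646590 and 2646633. In contrast, 12501579 to 12504488 on chromosome III spread 67 high-scoring sites over 2910 bp, 16.5% of its 405 sites, and none of them scored above 36.

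The other 6 of these regions had between 18.8% and 34.0% of their sites at 10 or more. On chromosome II, 1827299 to 1829358 had 66 of 352 sites at 10 or more, with a highest score of 43. On chromosome IV, 1733669 to 1734998 had 63 of 282, with a highest score of 32. The region 5459446 to 5460967 in the centre of chromosome III had 52 of 173, with a highest score of 102. Chromosome V had 13037033 to 13038637 in its centre with 51 of 200, 3749517 to 3750143 on its left arm with 49 of 144, and 20250987 to 20251851 on its right arm with 48 of 167. In these 3 regions on V, every listed site was on the minus strand.

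**Figure D2:**
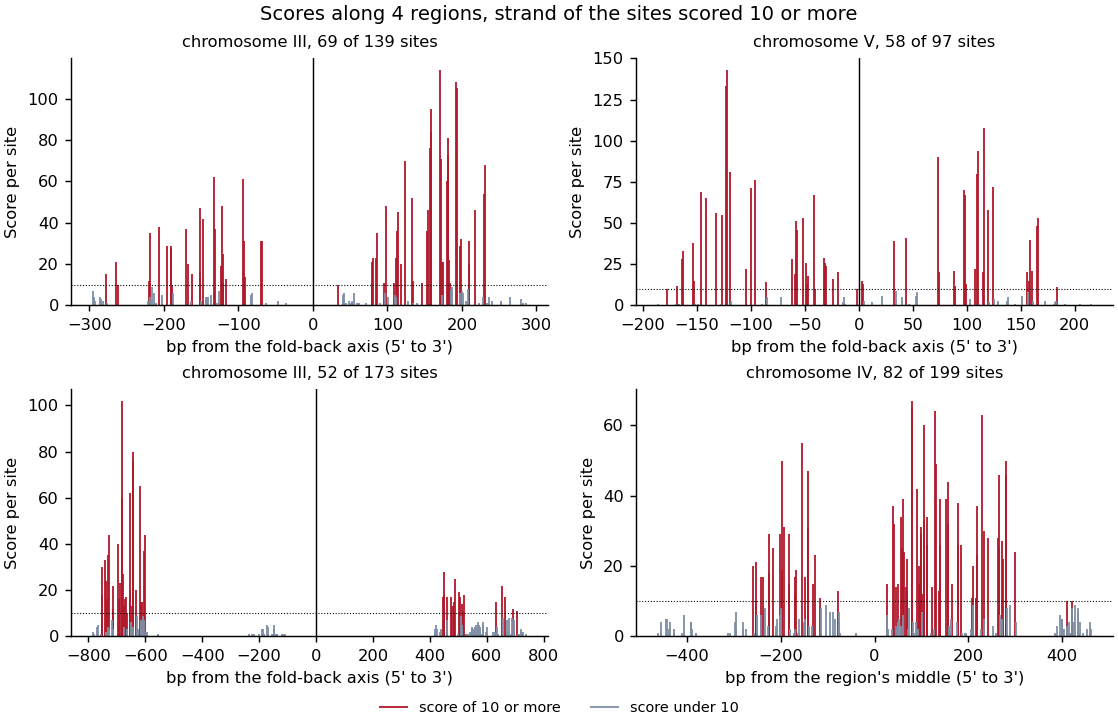
Score of each listed site (vertical axis) along 4 of the 10 richest regions, on the strand of their high-scoring sites; the horizontal axis is the distance in bp, 5′ to 3′, from the axis of a fold-back (3 panels, vertical line) or from the middle of the region (chromosome IV). Red lines are sites of 10 or more and grey lines are lower-scored sites. High scores form groups on either side of the axis, with summits of 114, 143 and 102 in the 3 regions that fold back and 67 in the region on IV.

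In nearly all regions, the high-scoring sites were on 1 strand. All of them were plus in 57 regions and minus in 66, and 2 regions had both. This was so by necessity in the 21 regions with a single high-scoring site and in regions listed on 1 strand only. Of the 125 regions, 41 had listed sites on both strands, and in 39 of these the high-scoring sites were on 1 strand. That strand also had the more listed sites in 38 of the 39, and the other strand had 977 lower-scored sites in all. The 2 exceptions were the region of 884 sites on chromosome III, where 10 high-scoring sites were plus and 16 minus, and 12609059 to 12612215 on the same chromosome, with 19 and 3. Per site, 692 high-scoring sites (43.4%) were plus, against 50.7% of lower-scored sites. The plus share of high-scoring sites was 20.7% on IV and 25.6% on V, but 53.7% on III, 60.3% on II and 81.0% on X. Sites of a region mostly share a strand, so a few regions weigh heavily in these shares. On IV, single regions held 82, 63 and 33 of the 279 minus sites, and on X 1 region held 42 of the 51 plus sites. Counted by region, 46.3% of those with high-scoring sites on 1 strand were plus (exact interval 37.3 to 55.6%), which includes an even split. The shares per site therefore show no strand preference of a chromosome.

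High-scoring sites were next compared with lower-scored sites of the same runs, a run being same-strand sites at most 100 bp apart. There were 170 runs with high-scoring sites, and each of them also held lower-scored ones, 9386 in all with a median score of 2. T preceded 32.9% of high-scoring sites and 21.4% of lower-scored ones, a difference of 11.5 percentage points. G preceded 6.14% of high-scoring and 12.1% of lower-scored sites, a difference of -5.93 points. After the site, G stood at 20.6% of high-scoring and 14.5% of lower-scored sites (6.09 points), C at 6.14% and 9.27% (-3.13 points), and T at 18.2% and 24.9% (-6.63 points). A remained the most frequent neighbour of high-scoring sites, with 47.1% before and 55.1% after.

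Regions are the unit over which these differences can be seen to recur. In 48 regions with at least 10 high-scoring and 10 lower-scored sites, T before was more frequent at high-scoring sites in 45 and less frequent in 3, with a median difference of 14.4 points (SD 11.3 over regions). G before was less frequent in 41 and more frequent in 7. G after was more frequent in 34 of the 48, T after less frequent in 39, and C after less frequent in 33. A before and C before were less uniform, each being more frequent in 19 regions. On each of the 5 chromosomes the pooled difference had the same sign, from 7.81 to 16 points for T before and from -7.49 to -5.66 points for G before. Some regions share sequence, as described further on, so they are not fully independent of each other.

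Lower-scored sites at the edges of a run may differ from those between high-scoring sites, so the comparison was repeated in the window from the first to the last high-scoring site of each run. The 3477 lower-scored sites in these windows were preceded by T in 17.4% and by G in 14.5%. Against them the difference grew to 15.5 points for T before and -8.38 points for G before. The difference for T before also depended on the limit: it was 7.35 points with a minimum score of 5 and 17.8 points with a minimum of 20. Along the scores of these runs, T before was found at 18.2% of sites with a score of 1, 21.5% at 2 to 4, 25.7% at 5 to 9, 29.7% at 10 to 14, 35.2% at 15 to 29 and 38.9% at 30 or more. G before stood at 15.1% of sites with a score of 1 and at 6.40%, 5.81% and 6.02% in the 3 classes from 10 upward, and G after at 11.9% and then 19.8%, 21.5% and 20.8%.

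The full triplets ranked accordingly. Of the 452 TAG sites in these runs, 121 were high-scoring, or 26.8% (exact 95% interval 22.7 to 31.1%, counting error only). TAA followed with 259 of 1089 (23.8%) and CAG with 65 of 359 (18.1%). AAA, the most frequent triplet, was high-scoring in 440 of 3144 cases (14%). At the low end, 14 of 266 GAT sites (5.26%) and 3 of 120 GAC sites (2.5%, exact 95% interval 0.519 to 7.13%) were high-scoring. TAG and GAC are the ends of this ranking and sites of a run are not independent, so their intervals are not compared. TAC, which also has T before the site, was high-scoring in 13.7% of 299 cases.

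**Figure D3:**
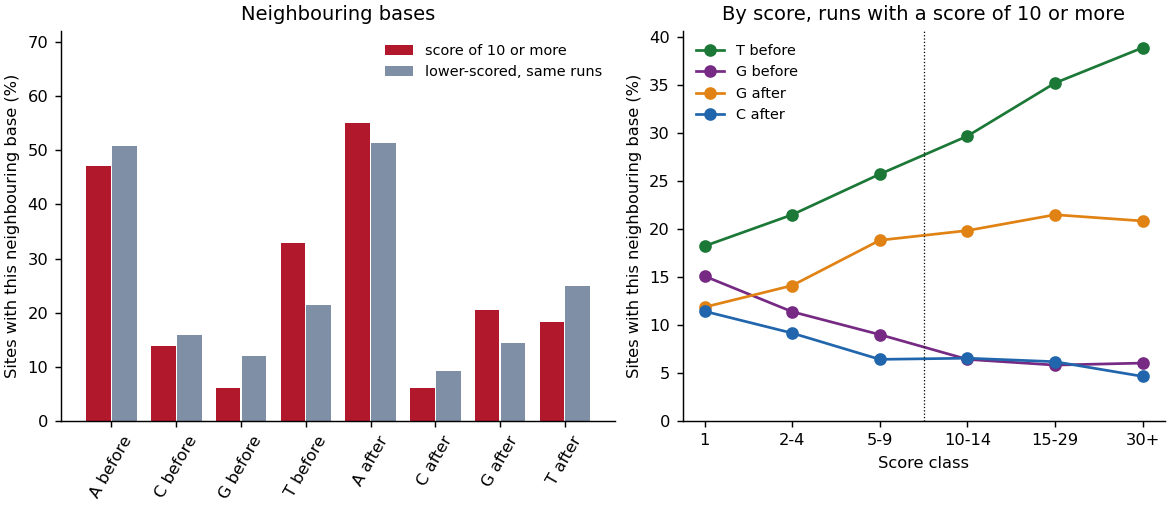
Left, percentage of sites with each base before or after the site, for 1596 high-scoring sites (red) and 9386 lower-scored sites of the same runs (grey). Right, percentage of sites with T before, G before, G after or C after in 6 classes of score, low to high, over all sites of runs with a high-scoring site; the dotted line marks the limit of 10. T before climbs to 38.9% in the highest class, while G before falls to 6.02%.

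In the runs with high-scoring sites, many listed adenosines stood in direct succession, and in stretches of 3 or more the last place had the fewest high scores. Stretches of other runs are not counted here. Among the 1594 stretches of exactly 2, the first site was high-scoring in 14.7% (exact 95% interval 13.04 to 16.6%) and the second in 16.6% (14.8 to 18.5%), and these intervals overlap. In stretches of at least 3 directly adjacent listed sites, the first site was high-scoring in 208 of 977 cases (21.3%), sites between in 349 of 1627 (21.5%) and the last in 97 of 977 (9.93%). The last place had a lower share than the first in 34 of the 48 regions, a higher share in 9 and the same in 5. Among stretches of exactly 3, the second site was most often high-scoring, at 28.0% (exact 95% interval 24.4 to 31.9%), against 20.2% for the first and 10.3% (7.90 to 13.0%) for the last. Stretches of 5 gave 27.4%, 23.2%, 13.7%, 11.6% and 6.32% from the first to the last place, over 95 stretches. The base beside a stretch went with these shares too. A first site that followed T was high-scoring in 36.7% of 264 cases. The share was 21.4% of 323 after C, 12.4% of 186 after G and 9.31% of 204 after A. A last site followed by G was high-scoring in 15.8% of 221 cases. The share was 10.5% of 438 before T, 8.82% of 102 before C and 3.24% of 216 before A. An A beside a stretch is an adenosine that is not listed.

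Pooled over runs, high-scoring sites lay closer to each other than lower-scored sites lay to them. The nearest other high-scoring site on the same strand was at a median distance of 2 bp, against 32 bp from lower-scored sites of these runs to the nearest high-scoring one. It was directly adjacent for 46.8% of high-scoring and 7.18% of lower-scored sites, and within 10 bp for 81.5% and 29.6%. Runs differed in their share of high-scoring sites, so pooled values can differ without any closeness inside a run. Spacing was not compared run by run. Listed sites of any score were dense here, with a directly adjacent listed site for 72.2% of high-scoring and 59.8% of lower-scored sites. No other high-scoring site within 100 bp was found for 32. Listed in order, they formed 944 unbroken series, 574 of which were single sites. In the median run with high-scoring sites, 11.8% of the listed sites were high-scoring, and in 3 runs at least 50% were. Runs of more sites held them more often: none of 1680 runs with 4 to 10 sites did, against 67 of 445 runs with 26 to 50 sites (15.1%) and 22 of 25 runs with more than 100.

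Within runs, high-scoring sites kept away from the ends. The middle 50% of the span held 62.9% of high-scoring sites and 48.3% of lower-scored ones, a difference of 14.6 points that had this direction in 36 of 48 regions and the opposite in 11. On chromosome X it was 2.43 points. Runs joined at 200 bp in place of 100 bp reduced it to 3.34 points. In runs with high-scoring sites, measured from the nearer end, the high-scoring share of listed sites was 3.05% within the first 9 bp and 8.27% from 10 to 24 bp. From 25 bp inward it was level, with 15.7%, 16.1% and 16.1% in the classes 25 to 49, 50 to 99 and at least 100 bp. Of the 340 ends of these runs, 6 were high-scoring. No preference for either side was seen, with 808 sites in the 5′ part of the run and 785 in the 3′ part. Coverage of the runs is unknown, and its part in this profile was not tested.

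**Figure D4:**
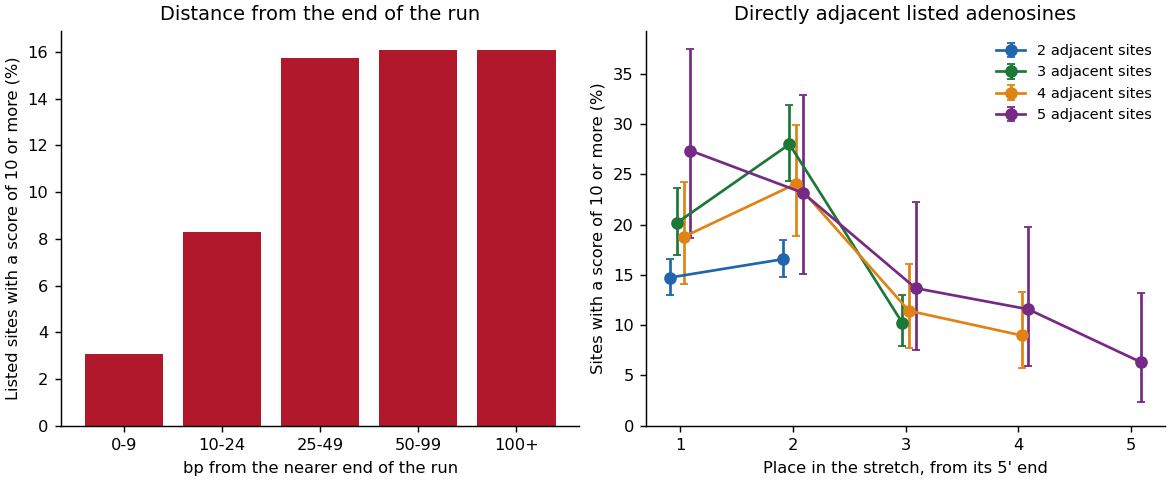
Both panels cover only runs with a high-scoring site. Left, percentage of listed sites that were high-scoring, by distance in bp from the nearer end of the run. Right, percentage of high-scoring sites by place, counted from the 5′ end, in stretches of 2 to 5 directly adjacent listed sites; bars are exact 95% binomial intervals, which cover counting error only. The share is 3.05% at the ends of runs and 16.1% far from them, and the last place of a stretch has 6.32 to 10.3% in stretches of 3 to 5.

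The listed triplets also allowed a search for self-complementarity. The sites were chosen by score alone, but the sources used here do not say whether sequence entered the score or the listing of sites. For each strand of each region, every axis was examined about which the known bases could pair with each other. A strand was said to fold back where its best axis had at least 20 pairs of known bases, at least 80% of them complementary. Of 127 strands with high-scoring sites, 35 folded back (27.6%, exact 95% interval 20.01 to 36.2%), against 18 of 2216 strands without (0.812%). Longer strands have more known bases, so the shares were also taken by size. With under 50 sites, 1 of 18 strands with high-scoring sites folded back (0.141 to 27.3%) and 0 of 2013 without. Most strands without high-scoring sites were in this class, so the shares over all sizes compare strands of unlike size. With 50 to 99 sites, 15 of 50 strands with high-scoring sites folded back (17.9 to 44.6%) and 12 of 159 without (3.96 to 12.8%). With at least 100 sites it was 19 of 59 (20.6 to 45.6%) and 6 of 44 (5.17 to 27.4%), and here the intervals overlap. Denser sites also leave more bases known, and strands with high-scoring sites were denser: the median was 11.5 listed sites per 100 bp with and 8.03 without at 50 to 99 sites, and 12.0 with and 7.24 without at 100 or more. The part of density in these shares was not tested. When bases were read without complementing them, the same search found 2 of the 127 and 2 of the 2216. With a minimum of 30 known pairs, 11.8% of the strands with high-scoring sites folded back, and with a minimum of 90% complementary pairs 16.5% did. Bases outside the listed triplets are unknown, so other strands may fold back unseen.

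Of the 10 richest regions, 4 folded back. On chromosome III, 12223929 to 12224510 had its axis at 12224215 with 57 of 60 known pairs complementary, and 12501579 to 12504488 had 68 of 79. The region 2646466 to 2646867 on V had 41 of 46, and 5459446 to 5460967 on III had 29 of 36. Pieces of 40 bases from the 5′ and the 3′ arm of the first of these, with n for unknown bases, show where the high-scoring sites lay on each arm. The first base of the 5′ piece lies opposite the last base of the 3′ piece, and all 18 positions known in both were complementary.
chrIII:12224333-12224372, minus strand, 5′ arm: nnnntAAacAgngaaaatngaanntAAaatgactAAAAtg
chrIII:12224058-12224097, minus strand, 3′ arm: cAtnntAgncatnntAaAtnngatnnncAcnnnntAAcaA
There were 9 high-scoring sites in the 5′ piece and 8 in the 3′ piece, so that both arms of the possible hairpin carried them.

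The 35 strands that folded back held 650 high-scoring sites, 40.7% of all. These were counted by side of the axis, also where they lay beyond the reach of the other side. A counted site thus need not have a partner to pair with. High-scoring sites were on both sides in 20 of the 35 and on 1 side in 15. Among the 20 strands with at least 10 high-scoring sites, 17 had them on both sides. In sum the 5′ sides had 332 and the 3′ sides 318. Some axes lay near 1 end: in 12161549 to 12164295 on chromosome III it was at 12161798.5, and all 11 high-scoring sites were on the longer 3′ side. Single strands could be uneven. On chromosome X, 1011580 to 1012308 had all 42 of its high-scoring sites on the 5′ side and none on the 3′ side, with 23 of 24 known pairs complementary. On chromosome II, 15209637 to 15210109 had 2 on the 5′ side and 17 on the 3′ side, and all of its 25 known pairs were complementary.

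Where the base opposite a site was known, it was T, the pairing partner of A, for 168 of 193 high-scoring sites (87.0%, exact 95% interval 81.5 to 91.4%) and for 633 of 713 lower-scored sites (88.8%, 86.2 to 91.0%) of the same strands. C, which leaves A unpaired, stood opposite 16 high-scoring sites (8.29%, 4.81 to 13.1%) and 29 lower-scored ones (4.07%, 2.74 to 5.79%). A stood opposite 7 (3.63%) and 46 (6.45%). The intervals overlapped for each of these bases, and the axis was chosen for complementarity, which raises the share of T in both groups.

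A further feature was sequence shared between regions. A region was said to share a pattern where 8 consecutive sites had the same triplets and spacing as 8 sites of another region. Of the 125 regions with high-scoring sites, 65 shared a pattern (52.0%), against 97 of the 1401 regions without that had a run of at least 8 sites (6.92%). The size classes count all regions, also those with no run of at least 8 sites. By size, it was 20 of 44 with (exact 95% interval 30.4 to 61.2%) and 39 of 172 without (16.7 to 29.7%) at 50 to 99 sites. At 100 or more sites it was 41 of 64 with (51.1 to 75.7%) and 17 of 50 without (21.2 to 48.8%), and the intervals do not overlap in either class. At 25 to 49 sites it was 4 of 14 with (8.39 to 58.1%) and 32 of 319 without (6.96 to 13.9%), where they overlap, and at 4 to 24 sites 0 of 3 with and 9 of 1407 without. Of the 65, 57 shared a pattern with a region that also had high-scoring sites. Regions are thus not independent of each other here, and the intervals cover counting error only. A match needs consecutive listed sites, and strands with high-scoring sites were denser, as given above. The part of density in these shares was not tested. Of the 10 richest regions, 9 shared a pattern, the exception being 3749517 to 3750143 on V.

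In all, 251 high-scoring sites had a corresponding site in another region. Of 1645 pairs of corresponding sites, 386 had at least 1 high-scoring site, and in 62 of these both sites were high-scoring. Since the 386 pairs were kept for a high score, how often both were high and how far their scores lay apart is a description of these pairs, with no measure of likeness between copies drawn from it. The regions with the most such pairs were 4474474 to 4475397 and 1655689 to 1656823, both on chromosome IV and both on the minus strand, with 36 corresponding sites. Of these, 25 were high-scoring in the first region (scores 2 to 67, median 16), 12 in the second (scores 1 to 28, median 5) and 11 in both. The stretch of 18 bases that is spelled out and identical in these regions shows which adenosines scored 10 or more in each.
chrIV:4474829-4474846, minus strand: aAtcaAAtAAAAattAAg
chrIV:1655845-1655862, minus strand: aatcAAataAAaattAAg
Of its 11 listed sites, 9 were high-scoring in the first region and 6 in the second. How the authors placed reads that match more than 1 copy is not given in the sources used here, and its part in these scores was not tested.

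**Figure D5:**
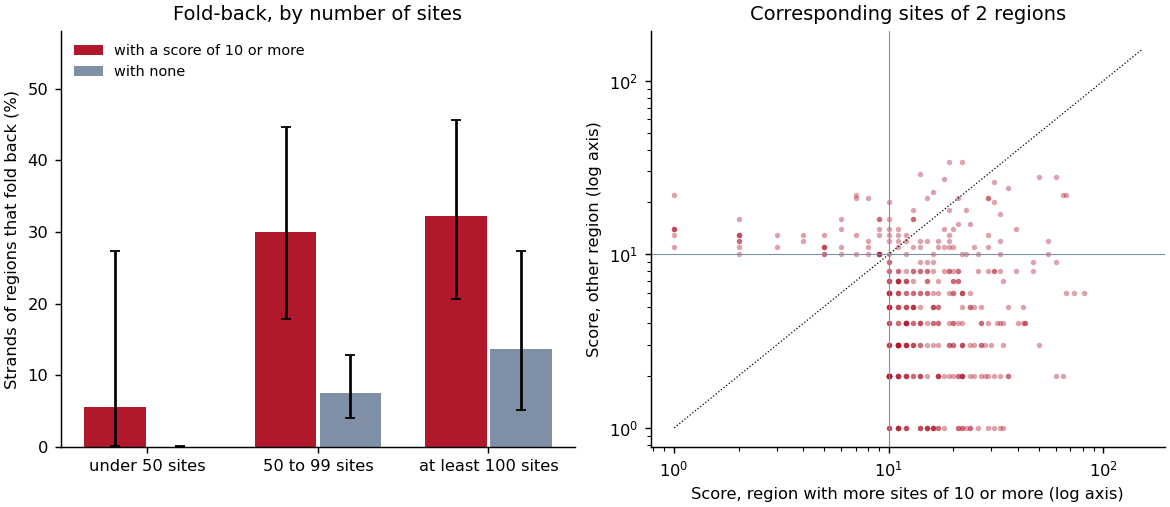
Left, percentage of strands of regions that fold back, by number of listed sites on the strand, with high-scoring sites (red) and without (grey); bars are exact 95% binomial intervals for counting error. Right, scores of 386 pairs of corresponding sites in regions that share a pattern, on log axes; the dotted line is equality and grey lines mark a score of 10. Since each pair holds a score of at least 10, the lower left is empty by choice; 62 pairs reach 10 on both axes.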

How the data were processed

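The authors deposited, for the whole series, a table of C. elegans A-to-G positions with no header. It gives chromosome, a 1-base interval, 3 genome bases, a score in whole numbers, and strand. The score is used as deposited, never as reads. Aligner, caller, filters and genome build were not given in the sources used here, so no position was assigned to a gene. Coordinates are the table's own, written 1-based. Triplets of minus-strand sites were reverse-complemented. The human table and chromosome I were not analysed here.

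Sites at most 1000 bp apart were merged into regions, and same-strand sites at most 100 bp apart into runs. Regions were placed by their midpoint. Intervals are exact (Clopper-Pearson, 95%) and cover counting error only. No p-value is given, since the score chose the sites, and sites are not replicates. Named are the 10 regions with the most high-scoring sites and the 5 highest sites from different regions; other regions were singled out after their values were seen. The best fold-back axis maximised complementary pairs minus 3 times the others, over bases at least 4 bp apart. The sites and comparisons were chosen with earlier results of these data known; the search for fold-back, facing bases, adjacent stretches and shared patterns was added after the table was seen. Scripts used Python 3.11.15, pandas 2.3.3, numpy 2.4.6 and scipy 1.17.1, and were tested on simulated data.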

Additional observations from a re-analysis of the deposited data

How the results depend on the processing

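The differences for T before, G before, G after, C after and the middle 50% of runs kept their sign under each alternative run for them; the other neighbouring bases were not recomputed. T before ranged from 7.35 to 17.8 points, G before from -8.43 to -4.28, G after from 4.56 to 8.65, C after from -4.16 to -2.01 and the middle 50% of runs from 3.34 to 19.4. With a minimum score of 5, the share of regions was 16.6%, the 10 richest regions held 21.1%, the plus share was 46.0%, G before was -4.28, T before 7.35 and the middle 50% 11.6 points. With a minimum of 20 these were 1.93%, 63.0%, 46.5%, -8.43 and 17.8 points, and the arm share was 95% and G after 8.65 points. Other settings that moved a value beyond its counting interval were as follows. Merging regions at 100 bp gave the 10 richest regions 31.3%. Runs joined at 200 bp gave 3.34 points for the middle 50%. Equal weight per region gave 15.7 points for T before. Without regions that hold sites on both strands, the share of regions was 4.66%, the 10 richest held 42.1%, the plus share was 35.7% and the middle 50% 19.4 points. Without chromosome II, III, IV or V in turn, the 10 richest held 45.9%, 49.3%, 42.9% and 41.7%, and the plus share was 38.9%, 38.1%, 49.8% and 47.7%. The following were chosen after seeing the data. Without the 10 richest regions, the next 10 held 30.1%. Lower-scored sites between high-scoring ones gave -8.38 points for G before and 15.5 for T before, and those with a score of at least 2 gave -4.36 for G before and 11.4 for the middle 50%. Fold-back was found for 11.8% of strands with at least 30 pairs and 16.5% with at least 90% complementary. Requiring runs of at least 10 sites changed no value, since each run used had at least 14. The causes of these changes were not tested. Depth is unknown, so an unlisted adenosine or a low score is no sign of absent editing. No paired analysis was possible because the table names no library. Replicates could not be left out for the same reason.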
